A study of Mus musculus with 79 samples.

Results

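Zic genes encode zinc finger transcription factors, and 4 of them, Zic1, Zic2, Zic4 and Zic5, were read as rows of 3 expression tables that list 23983 gene symbols each. The genes were taken by name, not by any measured value. RNA came from cells sorted out of the caudal ends of mouse embryos. This region holds neuro-mesodermal progenitors, which give rise to spinal cord and paraxial mesoderm and carry both the mesoderm factor T (Brachyury) and the neural and progenitor factor Sox2. The study asks how T, Sox2 and the presomitic mesoderm factor Tbx6 bear on the choice between those fates. Levels are FPKM, the number of fragments on a transcript scaled to its length and to the size of the library.

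The sorted fractions were T+ Sox2+, T+ and Sox2+ cells of wild-type (WT) embryos at Theiler stage TS12, labelled C57BL/6N. The T+ libraries came from T knockout embryos (T2J/2J, here T KO, C57BL/6J) and WT embryos (C57BL/6N), at TS12 and TS13. A pair of Tbx6+ libraries of TS14, both C57BL/6J, is titled Tbx6 KO and WT, but the source names put the Tbx6-/- genotype on the other library, so they are called the KO-titled and the WT-titled library. The single cells were 53 T+ Sox2+ cells of WT C57BL/6N embryos at TS13, out of 55 capture sites that the labels say held cells. All embryos came from embryonic stem (ES) cells placed into tetraploid host embryos, so that the ES cells form the embryo proper, and the embryo tissue was pooled before sorting. How many ES cell lines or embryos stand behind a library is not given in the sources used here. Each of the 9 bulk groups has 1 library, so a bulk difference describes those libraries and has no error between embryos.

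Zic proteins carry DNA-binding fingers related to those of the GLI factors that act in Hedgehog signalling. They are known for their part in neural tube closure, in dorsal neural tissue and in early patterning. In mice, loss of Zic2 function disturbs neurulation and forebrain formation, loss of Zic5 disturbs neural tube closure and neural crest, and Zic1 and Zic4 are known for their part in the cerebellum. The 4 genes lie in pairs in the genome. On build GRCm38.p6, Zic5 was at chr14:122459160-122465658 and Zic2 at chr14:122475384-122480328, which leaves 9725 bases between them. Zic1 was at chr9:91358058-91365768 and Zic4 at chr9:91365631-91389351, and these spans overlap by 138 bases.

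Promoter sequences of 300 bases (250 before to 50 after the annotated start, RefSeq, GRCm38.p6) were at hand for Zic1, Zic4 and Zic5. Those of Zic5, the expressed member of the 3, and of Zic1, which was close to 0 in all libraries, are shown for contrast. Both are read 5′ to 3′ on the minus strand, from chr14:122465609-122465908 and chr9:91365719-91366018, and capitals mark a match to the SOX motif ACAAT.
Zic5: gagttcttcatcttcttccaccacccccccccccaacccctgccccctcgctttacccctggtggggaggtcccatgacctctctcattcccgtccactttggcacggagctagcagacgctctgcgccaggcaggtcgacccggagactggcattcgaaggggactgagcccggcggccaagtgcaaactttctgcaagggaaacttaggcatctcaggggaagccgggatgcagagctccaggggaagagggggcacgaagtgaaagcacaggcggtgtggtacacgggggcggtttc
Zic1: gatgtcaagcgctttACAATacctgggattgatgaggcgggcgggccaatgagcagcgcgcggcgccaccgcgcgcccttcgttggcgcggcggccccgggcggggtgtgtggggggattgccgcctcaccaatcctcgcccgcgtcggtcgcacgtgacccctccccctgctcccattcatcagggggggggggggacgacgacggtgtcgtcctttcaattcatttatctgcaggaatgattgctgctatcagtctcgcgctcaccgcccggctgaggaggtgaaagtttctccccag
The Zic1 promoter held 31 CG dinucleotides, more than 89.4% of the 32851 mouse promoters searched, and the Zic5 promoter held 15, against a median of 7. The motifs searched, on both strands, were ACACCT for T-box factors, ACAAT for SOX factors and CTTTGA for TCF/LEF factors. They occur in 13.7%, 31% and 16% of all promoters of that length. Zic5 held none of them. Zic1 held 1 SOX match, at position -235 from the start, and Zic4 held 1 TCF/LEF match, at position 22. The Zic4 promoter, chr9:91368722-91369021, lies inside the Zic4 span given above, so its start is not the outer edge of that span. A match is a string of letters, not a binding site.

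The targeted genes were read before the Zic genes. T was at 4.61 FPKM in T KO and 69.8 in WT cells at TS12, and at 3.32 FPKM in T KO and 76.4 in WT cells at TS13. Tbx6, at TS14, stood at 10.2 FPKM in the KO-titled library and at 31.5 in the WT-titled library. Depth was estimated from the values at 20.8 to 43.5 M fragments per bulk library. In the sorted fractions the T mRNA did not follow the sort: it was at 341 FPKM in T+ Sox2+ cells, 141 in T+ cells and 192 in Sox2+ cells. T was thus higher in Sox2+ than in T+ cells, and the fractions below are named by the sort alone. The WT library of TS12 stood apart: 1031 of 1457 sensory receptor genes were above 0 in it, against 24 to 34 in the other 5 libraries of its table. It also held 3420 symbols that were at 0 in those 5, at a median of 0.122 FPKM.

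Zic2 and Zic5 were expressed in all 9 bulk libraries, while Zic1 and Zic4 were at or close to 0. Zic2 was the higher of the pair in all 9, by 2.15 to 11.0 times per length. Zic1 was highest in T KO cells of TS12, at 0.158 FPKM, and was 0 in 4 of the 9 libraries. Read back into fragments, with the counted length searched for the best whole-number match, its values came to an estimated 11 fragments in that library and to 1 to 4 in the other libraries above 0. Taking a counted length of 1 kb, no neighbouring levels of Zic1 differed beyond counting error. At the longer matched length the counting error is smaller, and that comparison was not made. Zic4 was 0 in 8 libraries and 0.267 FPKM in WT cells of TS12, the library with the many low receptor genes. Of the 3420 symbols found in that library alone, 598 were at or above the Zic4 level. Where a gene was at 0, the count allows up to 3 fragments, which for a gene of 1 kb is 0.0690 to 0.144 FPKM in these libraries, and less for a longer one.

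**Figure D1:**
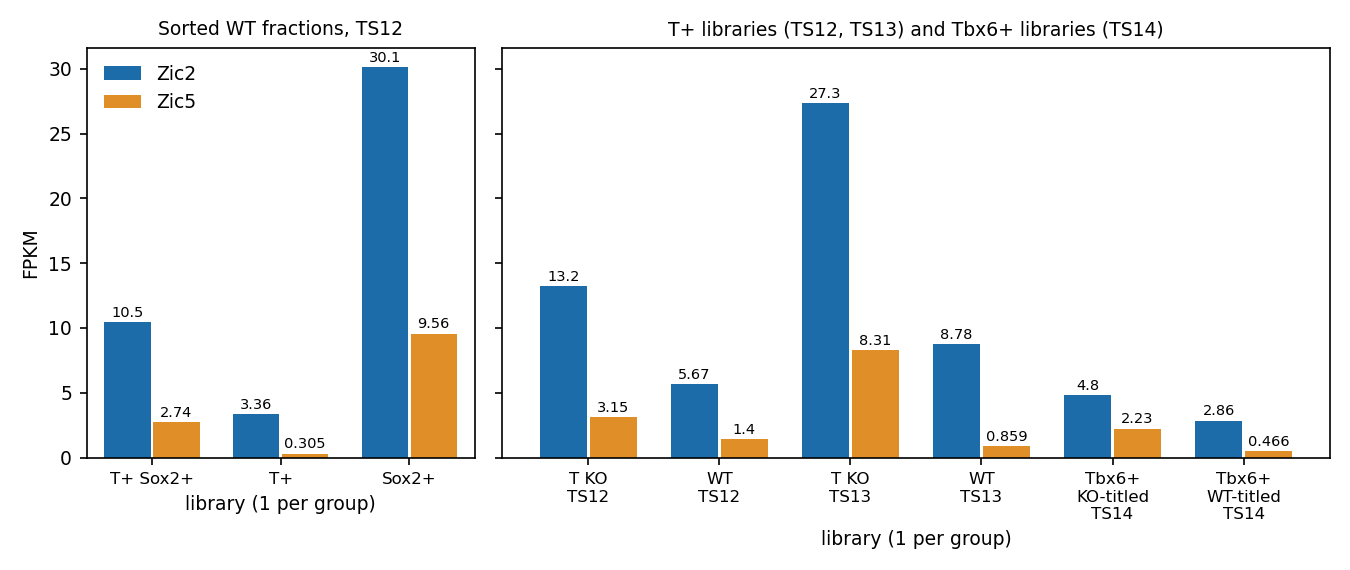
Zic2 (blue) and Zic5 (orange) in FPKM, 1 bar per library, for the sorted WT fractions on the left and the T+ and Tbx6+ libraries on the right; there is 1 library per group and so no error bar. Zic2 is highest in Sox2+ cells (30.1 FPKM) and in T KO cells of TS13 (27.3 FPKM), and the same libraries have the highest Zic5 (9.56 and 8.31 FPKM); the panels come from tables normalised separately.

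In the sorted WT fractions of TS12, T+ Sox2+ cells held Zic2 and Zic5 at levels between those of T+ and Sox2+ cells. Zic2 was at 10.5 FPKM in T+ Sox2+ cells, 3.36 in T+ cells and 30.1 in Sox2+ cells. Zic5 was at 2.74 FPKM in T+ Sox2+ cells, 0.305 in T+ cells and 9.56 in Sox2+ cells, which is an estimated 152, 21 and 651 fragments. Neighbouring levels of either gene were apart by more than counting error, taking a counted length of 1 kb. In bulk RNA, fewer cells that express a gene and less RNA per cell cannot be told apart.

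Against Sox2+ cells, T+ Sox2+ cells had less of both genes. A gene was called higher or lower where log2(FPKM + 1) differed by 1 or more, a factor of 2 on this scale, and only if either library had 5 FPKM or more. Zic2 was lower by that rule at a difference of -1.44, and Zic5 at -1.50, so 2 of the 4 Zic genes were called lower, against 1.44% of 8270 genes compared. Zic5 passed the minimum only through Sox2+ cells, and Zic1 and Zic4 did not pass it. Without the pseudocount, T+ Sox2+ cells had 0.348 of the Zic2 level and 0.287 of the Zic5 level of Sox2+ cells. With a pseudocount of 5 the Zic5 difference was -0.91 and no longer called.

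Against T+ cells, T+ Sox2+ cells had more Zic2, by 1.40, or 3.12 times the level. That is 1 of 4 Zic genes called higher, against 1.29% of 8290 genes. Zic5 was higher by 1.52, or 8.98 times the level, but stayed under 5 FPKM in both libraries and was not counted. Zic2 passed the minimum only through T+ Sox2+ cells. With a pseudocount of 5 the Zic2 difference was 0.89. T+ cells set against Sox2+ cells had the widest gaps of the 3 comparisons: -2.83 for Zic2 and -3.02 for Zic5, or 0.112 and 0.0319 of the Sox2+ level, with 2 of 4 genes called lower against 3.24% of 8383 genes; both passed the minimum only through Sox2+ cells. The 3 comparisons share their libraries and are not independent.

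Marker lists differed between the fractions too, not all in the order of the Zic genes. The 15 neural progenitor genes, which include Sox2, summed to 305 FPKM in T+ Sox2+ cells, 180 in T+ cells and 466 in Sox2+ cells, and none was at 0. The 11 endothelium and blood genes summed to 115 FPKM in T+ Sox2+ cells, 12040 in T+ cells and 232 in Sox2+ cells, again with none at 0. The 20 presomitic and paraxial mesoderm genes, Tbx6 included, summed to 956 FPKM in T+ Sox2+ cells, 915 in T+ cells and 268 in Sox2+ cells. For the 10 lateral plate and intermediate mesoderm genes the sums were 20.7, 136 and 10.4 FPKM. In Sox2+ cells Mesp1, Ripply2, Uncx, Pax1 and Gata4 of these 2 lists were at 0. The part of these other cells in the Zic differences was not tested. Sox1 and Sox3 spread wider over the fractions than Zic2. Sox1, a SoxB1 factor of committed neural cells, was at 5.28 FPKM in T+ Sox2+ cells, 0.180 in T+ cells and 28.3 in Sox2+ cells. Its relative Sox3 was at 6.61 FPKM in T+ Sox2+ cells, 0.403 in T+ cells and 31.1 in Sox2+ cells.

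Zic2 was then set against Sox2 and against Zic5. The ratio of Zic2 to Sox2, both in FPKM and so per length, was 0.638 in T+ Sox2+ cells, 1.19 in T+ cells and 0.596 in Sox2+ cells. The ratio of Zic2 to Zic5 was 3.83 in T+ Sox2+ cells, 11.0 in T+ cells and 3.15 in Sox2+ cells. Relative to Sox2+ cells, Zic5 was thus lower than Zic2 in the T+ fraction, where it rested on few fragments.

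In T+ cells that lacked T, Zic2 was higher at both stages. Zic2 was at 13.2 FPKM in T KO and 5.67 in WT cells at TS12, and at 27.3 FPKM in T KO and 8.78 in WT cells at TS13. Both T KO libraries were above both WT libraries. The differences were 1.096 at TS12 and 1.53 at TS13, or 2.34 and 3.11 times the WT level. On the plain log2 ratio the counting intervals were 0.92 to 1.53 and 1.46 to 1.82, taking a counted length of 1 kb, and they cover counting error only.

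Zic5 had the larger difference at TS13. Zic5 was at 3.15 FPKM in T KO and 1.40 in WT cells at TS12, and at 8.31 FPKM in T KO and 0.859 in WT cells at TS13. These levels are an estimated 156 and 73 fragments at TS12, and 624 and 82 at TS13. Again both T KO libraries were above both WT libraries. The difference was 2.33 at TS13, or 9.69 times the WT level. At TS12 it was 0.79, or 2.26 times the level, with both libraries under 5 FPKM. Of the 4 Zic genes, 1 was called higher at TS12, against 0.992% of 7864 genes, and 2 at TS13, against 1.11% of 7952 genes. Zic5 passed the minimum at TS13 only through the T KO library.

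A fit over both stages called Zic2 and not Zic5. limma on the 4 T+ libraries, with stage and genotype as terms, gave Zic2 a log2 fold change of 1.32 in T KO over WT (SE 0.17, Benjamini-Hochberg adjusted p = 0.00338). Zic2 was thus 1 of 54 genes that rose among 8186 tested, 0.66%, while 69 fell. Zic5 had a larger fold change, 1.56, but a wider error (SE 0.40, limma adjusted p = 0.105). By size of fold change Zic5 ranked 12 and Zic2 24 upward. The error in this fit joins the difference of a gene's effect between the stages, 1 residual degree of freedom, with the spread borrowed from the other genes, and holds no spread between embryos.

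The call of Zic2 did not hold under every setting. The limma adjusted p was 0.66 with no minimum on FPKM, 0.19 with a minimum of 20, and 0.32 without the stage term. With any of the 4 libraries left out it was 0.15 to 0.80, but those fits had to drop the stage term too. The WT library that stood apart is the control of the TS12 difference, and with the TS13 control in its place T KO cells of TS12 had a Zic2 difference of 0.54. Without that WT library and without the stage term the limma log2 fold change was 1.04 (adjusted p = 0.80). Genotype and substrain label cannot be told apart in the T+ libraries, since T KO is C57BL/6J and WT is C57BL/6N.

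**Figure D2:**
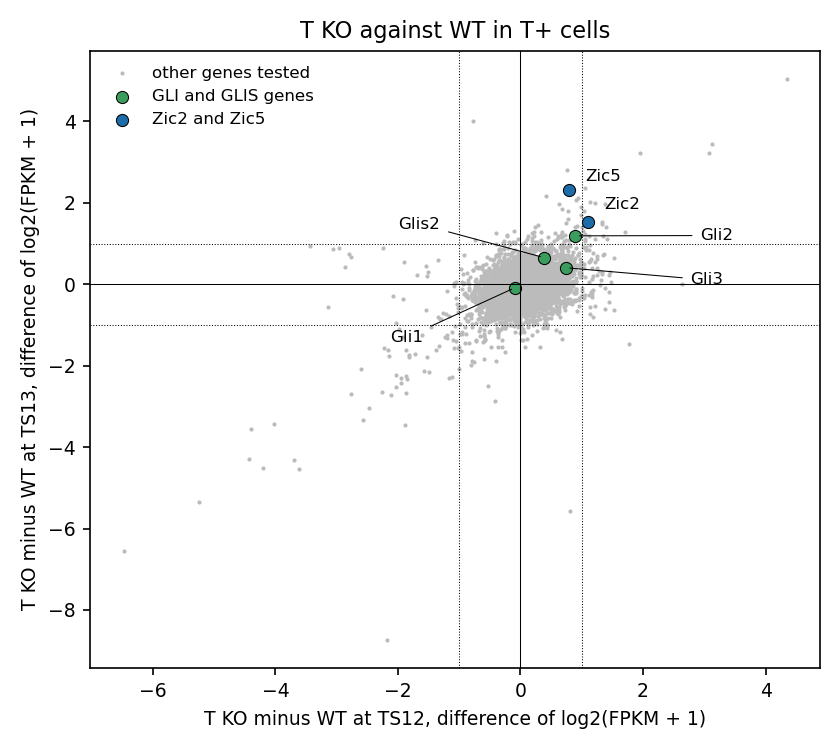
Difference in log2(FPKM + 1) between T KO and WT T+ cells at TS12 (horizontal) and at TS13 (vertical), 1 point per gene that reached 5 FPKM in any of the 4; dotted lines mark a difference of 1 and blue and green points mark Zic and GLI or GLIS genes. Zic2 lies past 1 at both stages (1.096 and 1.53), Zic5 at TS13 (2.33) and not at TS12 (0.79), and Gli2 at TS13 (1.19).

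Genes of other lists passed the same test. Of 11 tested presomitic and paraxial mesoderm genes 9 fell in the limma fit, with a median log2 fold change of -1.50 over the list against -0.01 over all genes. The whole list of 20 summed to 141 FPKM in T KO and 408 in WT cells at TS12, and to 78.7 FPKM in T KO and 407 in WT cells at TS13. Mesp2 and Ripply2, genes of the forming segment, and Meox2 were at 0 in both T KO libraries. All 3 were under the minimum in WT cells too. At TS12 and TS13 WT cells had Mesp2 at 0.188 and 0.116 FPKM, and Ripply2 at 0.635 and 0.944 FPKM. Meox2 was at 0.601 and 0.0531 FPKM in them. Of 10 neural progenitor genes 3 rose: Hes3, a Hes repressor of neural progenitors, by 2.58 (adjusted p = 0.00115), Sox3 by 1.61 (adjusted p = 0.0170) and the adhesion molecule Ncam1 by 0.80 (adjusted p = 0.0483), all by limma. The other 7 did not pass in the limma fit. Of these, Sox1 was at 1.79 (adjusted p = 0.158), Irx3 at 0.70 (adjusted p = 0.220), Cdh2 at 0.31 and Foxb1 at 0.24. Fabp7, a fatty acid binding protein, was at -1.90 (adjusted p = 0.0927), Hes5, a Notch target, at -1.31 (adjusted p = 0.129) and Nes at -0.09. The 15 genes of that list summed to 144 FPKM in T KO and 107 in WT cells at TS12, and to 249 FPKM in T KO and 127 in WT cells at TS13. Fabp7 was at 0 in T KO cells of TS13, and Nkx2-9 in the other 3 libraries. Of 12 tested axial progenitor genes 3 rose and 2 fell by limma, at a median of -0.01. Nkx1-2 rose by 1.16 (adjusted p = 0.00319), Wnt8a by 1.52 (adjusted p = 0.0218) and Sp8 by 0.79 (adjusted p = 0.0399). Cyp26a1 was at -2.67 (adjusted p = 0.00113) and Fgf3 at -2.27 (adjusted p = 0.00192). Whether the higher Zic2 reflects more neural or axial progenitor cells among the sorted T+ cells was not tested.

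Between the stages, Zic5 was called higher in T KO cells and neither gene was called in WT cells. In T KO cells Zic2 was at 13.2 FPKM at TS12 and 27.3 at TS13, a difference of 0.99, just under the call, and Zic5 was at 3.15 and 8.31 FPKM, a difference of 1.17. That is 1 of 4 Zic genes called higher at TS13, against 0.669% of 7919 genes, and Zic5 passed the minimum only through the TS13 library. In WT cells Zic2 was at 5.67 FPKM at TS12 and 8.78 at TS13, a difference of 0.55, while Zic5 was at 1.40 and 0.859 FPKM, a difference of -0.37. None of the 4 was called in WT cells, against 0.962% of 7799 genes called higher. Stage and genotype comparisons use the same 4 libraries. Other lists differed with stage as well. The 11 endothelium and blood genes summed to 424 FPKM at TS12 and 1838 at TS13 in T KO cells, and to 828 and 2384 FPKM in WT cells, with none at 0. In T KO cells 4 of 7 measured genes of that list and 4 of 9 measured neural progenitor genes were called higher at TS13. In WT cells the counts were 5 of 9 and 0 of 8. Their part in the Zic differences was not tested.

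In the Tbx6+ libraries of TS14 both genes were low. Zic2 was at 4.80 FPKM in the KO-titled library and 2.86 in the WT-titled library, a difference of 0.59. Zic5 was at 2.228 FPKM in the KO-titled library and 0.466 in the WT-titled library, a difference of 1.14, from an estimated 231 and 38 fragments. Neither gene reached 5 FPKM, so 0 of the 4 were counted as higher, against 2.47% of 7719 genes. The 11 endothelium and blood genes summed to 263 FPKM in the KO-titled library, with none at 0, and to 24.6 FPKM in the WT-titled library, with Gata1 and Slc4a1 at 0. Of 4 measured genes of that list 3 were called higher in the KO-titled library and 1 lower. Those higher were the globin genes Hba-x, Hbb-bh1 and Hbb-y, with Hbb-y at 175 FPKM against 0.0472 in the WT-titled library. Kdr, an endothelial gene, was the lower one, at 2.11 against 12.8 FPKM. The part of blood or endothelial cells in the Zic differences was not tested.

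Sox2 and Zic2 parted in the KO-titled library. Sox2 was at 42.3 FPKM there, close to its level in T KO cells of TS13 (43.5 FPKM), yet Zic2 was at 4.80 FPKM against 27.3 in the same 2 libraries. The ratio of Zic2 to Sox2 was 0.113 in the KO-titled library and 0.554 to 1.19 in the other 8 libraries. Neural genes differed among themselves there. The list of 15, Sox2 included, summed to 205 FPKM in the KO-titled library and 150 in the WT-titled library, with Nkx2-9 at 0 in the WT-titled library. Of 6 measured genes of that list, Sox2 alone was called higher in the KO-titled library, at 42.3 against 4.70 FPKM. Fabp7 alone was called lower there, at a difference of -1.12. Nes, an intermediate filament of neural progenitors, was at 24.7 FPKM in the KO-titled library and 20.9 in the WT-titled library, and Ncam1 at 49.0 and 29.2 FPKM, while the genes that follow were low. Sox1 was at 0.991 FPKM in the KO-titled library and 0.405 in the WT-titled library, Sox3 at 0.668 and 0.410 FPKM, and Hes3 at 0.628 and 0.128 FPKM. Irx3, Pax6 and Hes5 of the list were lower in the KO-titled library. Irx3 was at 1.73 FPKM there and 3.87 in the WT-titled library, Pax6 at 0.84 and 1.39 FPKM, and Hes5 at 0.126 and 1.17 FPKM. Nkx1-2, a homeobox factor of axial progenitors, was at 38.6 FPKM in the KO-titled library and 4.73 in the WT-titled library. Pax3, a factor of dorsal neural tube and somites, was at 17.2 FPKM in the KO-titled library and 1.95 in the WT-titled library.

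**Figure D3:**
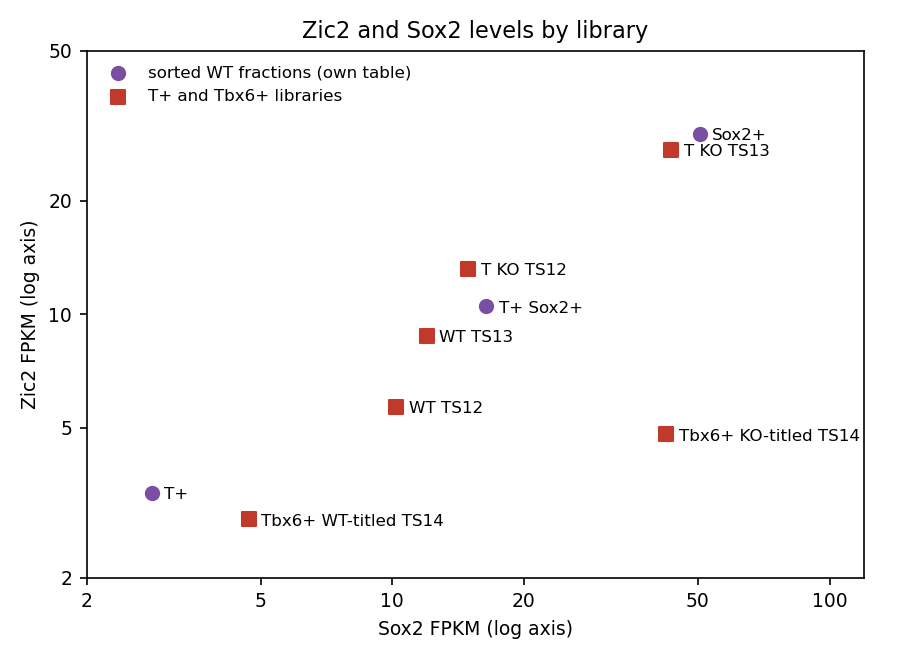
Zic2 against Sox2 in FPKM on log axes, 1 point per bulk library; circles are the sorted WT fractions and squares the T+ and Tbx6+ libraries, from tables normalised separately. The KO-titled library (Sox2 42.3, Zic2 4.80 FPKM) lies apart at a ratio of 0.113, away from the other 8, whose Zic2 is 0.554 to 1.19 of their Sox2.

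The GLI and GLIS factors, relatives of the Zic factors, did not pass the limma test, though Gli2 passed the 2-fold call at TS13. Gli2, an activator and repressor of Hedgehog targets, was at 6.27 FPKM in T KO and 2.91 in WT cells at TS12, and at 7.66 FPKM in T KO and 2.80 in WT cells at TS13, a difference of 1.19 that makes it the 1 of 3 relatives measured at that stage called higher. Its limma log2 fold change of 1.04 did not pass the test (adjusted p = 0.0670). Gli3, mainly a repressor, was at 24.5 FPKM in T KO cells of either stage and at 14.3 and 18.2 FPKM in WT cells of TS12 and TS13 (log2 fold change 0.57, limma adjusted p = 0.125). Of the 6 listed, 4 were tested by limma and 0 passed, with Glis2 at 0.52 and Gli1, a Hedgehog target itself, at -0.08. Glis1 and Glis3 were under the minimum. Set against Sox2+ cells, T+ Sox2+ cells had less Gli2, 5.45 against 18.1 FPKM, a difference of -1.57. Of 7 Hedgehog pathway genes 4 were tested in the T+ libraries and 0 passed, at a median of -0.02.

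Dorsal neural tube genes were mixed. Of 12 listed, 6 were tested in the T+ libraries and 0 were called by limma, at a median log2 fold change of -0.16. At TS13 alone 2 were at least 2-fold higher in T KO cells and 2 lower. Pax3 was at 11.97 FPKM in T KO and 3.60 in WT cells, and Gdf10, a BMP family ligand of the roof plate region, at 5.33 and 0.418 FPKM. Wnt3a, a Wnt ligand of the tail bud and roof plate, was at 1.66 FPKM in T KO and 18.6 in WT cells, and Msx2, a homeobox factor downstream of BMP, at 6.59 and 14.9 FPKM. In T+ Sox2+ cells set against Sox2+ cells, Gdf10 (0.548 against 9.51 FPKM) and Olig3, a factor of dorsal progenitors (0.436 against 7.26 FPKM), were lower, and Wnt3a (38.1 against 16.2 FPKM) was higher.

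Across the 6 libraries of the T+ and Tbx6+ table, the genes most like Zic2 by Pearson correlation of log2(FPKM + 1) were Gpr153, an orphan receptor (r = 0.997), Hoxb5, a Hox factor (0.996), and the kinase Dyrk1b (0.994), out of 8490 genes ranked. Hes3 ranked 6, Sox3 31, Zic5 332 (r = 0.871), Sox1 425, Nkx1-2 972 and Sox2 1815. Those most like Zic5 were Brat1 (0.993), the DNA repair enzyme Mutyh (0.987) and the histone methyltransferase Suv420h2 (0.986). Genes were ranked if they had at least 5 FPKM in 1 of the 6 libraries, which Zic5 reached only in T KO cells of TS13. Pearson r takes no account of the size of a change. Suv420h2 was at 5.5 to 8.6 FPKM over the 6 libraries, and Zic5 at 0.466 to 8.31. The 6 points share a table and differ in depth, stage and sort. With so few points and so many genes, the highest r values are near 1 for unrelated genes too.

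The RNA gene between Zic5 and Zic2 was read for its position, chosen after its values were seen. 2610035F20Rik ends 184 bases before Zic2 (chr14:122470377-122475199). It was at 1.94 FPKM in T+ Sox2+ cells, 0.241 in T+ cells and 7.31 in Sox2+ cells. It was at 0.0419 FPKM in T KO and 0.396 in WT cells at TS12, and at 2.93 FPKM in T KO and 0.0434 in WT cells at TS13. It stood at 2.38 FPKM in the KO-titled library and 0.661 in the WT-titled library. The order over the sorted fractions was that of its neighbours. At TS12 T KO was below WT, but both values were low. The WT value of TS12 comes from the library with the many low receptor genes.

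In single T+ Sox2+ cells of TS13, Zic2 was found in part of the cells and Zic5 in almost none. Zic2 reached 1 FPKM in 23 of 53 cells, 43.4% (exact binomial interval 29.8% to 57.7%). It was above 0 in 25 cells and at least 5 FPKM in 6. The lowest and the median cell were at 0 and the highest at 31.6 FPKM, followed by cells at 18.6 and 7.59 FPKM. Zic5 was found in 1 cell, at 1.47 FPKM, and Zic2 was 0 in that cell. Zic1 and Zic4 were at 0 in all 53, which allows up to 5.66% of cells with a value above 0 (3 cells in 53; the exact binomial bound is 6.72%) and sets no limit on cells that express them. These intervals cover counting error only, and the depth of each cell is unknown.

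Cell by cell, Zic2 showed no clear relation to Sox2. Sox2 reached 1 FPKM in 46 cells, and 20 of the 23 cells with Zic2 were among them (Spearman rho = -0.12 over 53 cells). The 2 cells with the most Zic2, 31.6 and 18.6 FPKM, had Sox2 at 0.919 and 0 FPKM. The cell at 31.6 FPKM had 4075 genes at 1 FPKM or more, the fewest of the 53 cells. Of the 12 cells with Nkx1-2, 10 had Zic2, which is 83.3% of Nkx1-2 cells and 43.5% of Zic2 cells. For Sox3 it was 12 of 22 cells, for Sox1 4 of 5 and for Msgn1, a factor of presomitic mesoderm, 8 of 15. Other genes of the neural list had lower shares: Hes3 8 of 17, Ncam1 21 of 50 and Nes 8 of 26. Meox1, of the presomitic and paraxial mesoderm list, had 3 of 4. Over all 53 cells the share with Zic2 was 43.4%. Cells with Zic2 also had more genes detected, a median of 6420 against 5653.5 in the other 30, and rho with genes per cell was 0.30. The part of that gap in the shared detection was not tested. The closest genes over cells were Rad17, of the DNA damage checkpoint (rho = 0.624), the Polycomb gene Ring1 (0.591) and Rgl2, a Ral exchange factor (0.530). Too few cells held Zic1, Zic4 or Zic5 to rank genes against them.

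**Figure D4:**
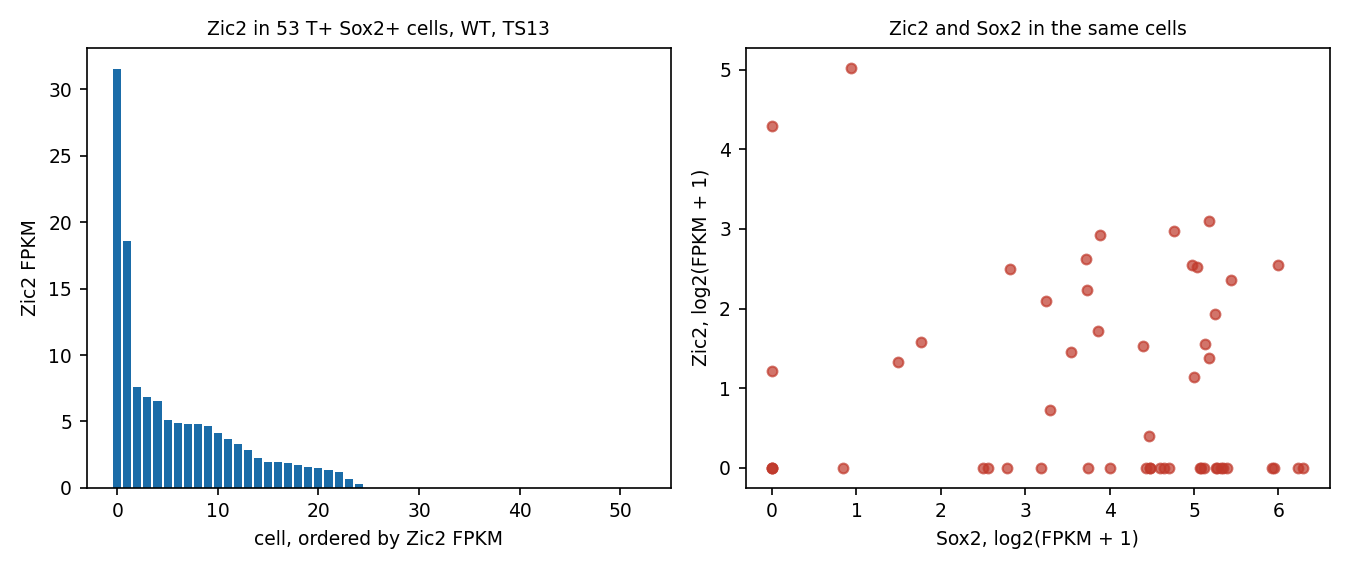
Left, Zic2 in FPKM in each of 53 WT T+ Sox2+ cells of TS13, ordered by level; right, Zic2 against Sox2 in the same cells as log2(FPKM + 1), 1 point per cell. In all, 25 cells are above 0 and 2 cells stand above 10 FPKM, both with Sox2 below 1 FPKM, and the points show no trend (rho = -0.12). The cell with the most Zic2 had the fewest genes detected of the 53.

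How often a gene is found in cells depends on its level, so genes of like level in the bulk T+ Sox2+ library of TS12 were set beside the Zic genes, a step added after seeing the data. Among 1460 genes at 8.38 to 13.1 FPKM in that library, around the 10.5 FPKM of Zic2, the median was 26 cells with at least 1 FPKM, against 23 for Zic2. Among 781 genes at 2.19 to 3.42 FPKM, around the 2.74 FPKM of Zic5, the median was 9 cells, against 1 for Zic5, and 8.19% were found in as few cells or fewer. The bulk library is total RNA of TS12 and the cells are polyA RNA of TS13, so the stage and the kind of RNA differ between them.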

How the data were processed

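The authors deposited FPKM in 3 tables with a row for each gene symbol. On build mm10, the submitters' processing notes list Cufflinks 2.2.1 (Cuffdiff, Cuffnorm), TopHat2 2.1.0, Picard 1.103, Bowtie 1.1.2, SAMtools and bedtools 2.23.0, without saying what each did or how libraries were scaled. Per the labels' protocols the sorted fractions were made with TotalScript, the T+ and Tbx6+ libraries with the strand-specific ScriptSeq v2 kit after ribosomal RNA depletion, and the cells on a Fluidigm C1 chip from polyA RNA. Differences were made within 1 table only.

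No count model was run on FPKM. Differences are of log2(FPKM + 1), which understates the change of low genes. Small RNA genes, numbered gene models, Rik symbols, mitochondrial genes, ribosomal pseudogenes and joined symbols were left out of counts and ranks, which kept 19731 symbols, and counts over all genes leave out the sorted or knocked-out genes T, Sox2 and Tbx6. Groups have 1 library, so the only test was limma 3.58.1 (R 4.3.3, empirical Bayes trend, stage and genotype, Benjamini-Hochberg over all genes tested, threshold 0.05).

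Depth was estimated from low genes of 300 to 4000 bases, whose FPKM times length are whole multiples of 1 fragment: 59 to 984 genes per library lay within a relative 0.0003 of a multiple up to 15, against 5 to 19 with lengths shuffled. For each Zic gene above 0 in at least 3 libraries, counted lengths of 300 to 5000 bases were searched for the best whole-number match, accepted within 0.05 of a fragment. It was 3351 bases for Zic1 and 2383 for Zic5, and Zic2 gave none. This step was chosen after seeing the data, and the fragment numbers are estimates.

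Named are the 4 Zic genes, T, Sox2 and Tbx6, the GLI and GLIS relatives, dorsal neural tube genes past the call, the 3 genes most like each Zic gene, and examples of other lists. The members and lists were chosen with earlier results of these data known. 1 further row that the naming rule covers is not reported here and was left out of counts and ranks after its values were seen, so nothing is said of the Zic family as a whole. Promoters are from RefSeq (GRCm38.p6), with 3 of the 4 genes matched. Alternatives were other pseudocounts and minimums, upper-quartile scaling, no stage term, no trend, each library left out and other detection limits. Chromatin samples were not analysed here.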

Additional observations from a re-analysis of the deposited data

Results flagged for a closer look

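The stage difference of Zic5 had opposite signs in T KO and WT cells. In T KO cells it was at 3.15 FPKM at TS12 and 8.31 at TS13, a log2 difference of 1.17, and in WT cells at 1.40 and 0.859 FPKM, a log2 difference of -0.366. With 1 library in each group the difference between the genotypes was not tested. Both WT libraries were under 5 FPKM, so the WT difference was not counted. The counting interval of its plain log2 ratio was -1.40 to 0.0016, taking a counted length of 1 kb. At the same length, the comparison of neighbouring levels put the WT levels apart by more than counting error. At the longer matched length of Zic5 the counting error is smaller, and that interval was not computed. The WT value of TS12 comes from the library in which many receptor genes were above 0.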

How the results depend on the processing

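Of the Zic genes, 2 were called lower in T+ Sox2+ cells against Sox2+ cells, and 1 with a minimum of 20 FPKM or a pseudocount of 5. Against T+ cells 1 was called higher in T+ Sox2+ cells, 0 with a pseudocount of 5 or a minimum of 20, and 2 with a minimum of 1 or none. Lower in T+ than in Sox2+ cells were 2, and 1 with a minimum of 20. For T KO over WT at TS12 the number was 1, and 0 with a pseudocount of 5, a minimum of 20 or the WT library of TS13 in place of that of TS12. At TS13 it was 2, and 1 with a minimum of 20. For TS13 over TS12 in T KO cells it was 1, 0 with a pseudocount of 5 or a minimum of 20, and 2 with a pseudocount of 0.1 or upper-quartile scaling. In the KO-titled against the WT-titled Tbx6+ library it was 0, and 1 with a minimum of 1 FPKM or none. Cells with Zic2 were 23 at 1 FPKM, 25 above 0 and 6 at 5 FPKM.

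In the limma fit the number of Zic genes called was 1, and 0 with no minimum, with a minimum of 20, without the stage term and with any library left out (0 to 0). The log2 fold change of Zic2 was 1.315 in all 3 of those fits on 4 libraries, with an adjusted p of 0.66, 0.19 and 0.32, and with a library left out 0.8191 (T KO TS13), 1.038 (WT TS12), 1.591 (WT TS13) and 1.811 (T KO TS12), where the stage term was dropped as well and the lone library of a genotype is assumed to vary like the others. With no minimum 0 genes were called by limma in either direction, while 1291 had an unadjusted p under 0.05. The cause of these losses was not tested. No paired analysis was possible because each group has 1 library and no replicate numbers to pair; the stage term of the limma fit sets T KO against WT within a stage. Depth limits Zic1 and Zic4, which were at 0 in 4 and 8 of the 9 libraries.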
